A study of Homo sapiens with 12 samples.

Results

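The genes described here are 9 subunits, inhibitors and targets of the transcription factor NF-kB, chosen by name: NFKB1, NFKB2, RELA, RELB, NFKBIA, NFKBIE, TNFAIP3, BIRC3 and ICAM1. All probe sets paired with these symbols were taken, which gave 15 of the 54613 probe sets on the array, for 8 of the 9 genes. BIRC3 had no probe set under its symbol in the probe table used and was not analysed here. All 8 measured genes passed the filter on dim signals and were among the 12674 genes tested. They were measured in SK-OV-3, an established human ovarian cancer cell line. It was cultured for 24 h in 12 samples, 3 for each of 4 treatments. These were PBS, recombinant BMP2 at 100 ng/ml, DM at 5 µM, or both of these reagents. BMP2 (bone morphogenetic protein) is a signalling protein related to TGF-beta, and DM is a reagent that the labels name by these letters alone. RNA of each sample was hybridised to its own array, and the values are MAS5 signals. The labels call the 3 samples of a treatment biological replicates, and all are of 1 line.

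NF-kB is a dimer of Rel family proteins that is held in the cytoplasm by inhibitors of the IkB family. Receptors for TNF and interleukin-1 activate the IkB kinase, which marks the inhibitor for destruction and frees the dimer to enter the nucleus. Among its targets are cytokines, adhesion molecules and its own inhibitors, so the genes of the pathway form a feedback circuit. In ovarian cancer cells the pathway is known for driving interleukin-6 and chemokine expression.

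Several of these genes carry NF-kB sites near their own start, and the promoters of NFKB1 and NFKBIA are shown because the first encodes the subunit called with DM alone and the second the textbook feedback target, which was not called. Each line below is the 250 bases before a RefSeq start (GRCh38.p14), with capitals marking matches to the decameric NF-kB consensus. NFKB1, for the first of its 2 starts in the table, covers chr4:102501109-102501358, plus strand, and NFKBIA covers chr14:35404750-35404999, minus strand.
NFKB1: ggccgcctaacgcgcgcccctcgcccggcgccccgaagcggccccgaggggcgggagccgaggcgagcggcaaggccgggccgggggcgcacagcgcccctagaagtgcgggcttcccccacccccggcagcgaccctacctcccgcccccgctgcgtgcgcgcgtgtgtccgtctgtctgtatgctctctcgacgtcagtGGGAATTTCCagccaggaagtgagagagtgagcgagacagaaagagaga
NFKBIA: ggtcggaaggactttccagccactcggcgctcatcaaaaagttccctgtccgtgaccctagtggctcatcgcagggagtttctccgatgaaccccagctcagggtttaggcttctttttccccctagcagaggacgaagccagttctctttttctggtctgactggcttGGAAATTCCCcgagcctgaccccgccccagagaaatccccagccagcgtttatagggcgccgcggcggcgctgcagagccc
The NFKB1 match, GGGAATTTCC, begins 49 bases before this start, while the window of the second NFKB1 start held none, and the NFKBIA match, GGAAATTCCC, which reads as the consensus on the opposite strand, begins 81 bases before its own start. The consensus was searched on both strands, and overlapping matches were each counted. RefSeq windows were at hand for 7 of the 9 genes, and 5 of these had a match before at least 1 start: NFKBIA, TNFAIP3, NFKB1, NFKB2 and BIRC3. TNFAIP3 had 2, GGAAAGTCCC and GGAAATCCCC, 67 and 55 bases before its start. The windows of RELA and ICAM1 held no match to this consensus, and forms of the site that differ from it were not searched. Of all 35116 RefSeq windows of the same length, 9.96% held a match, and 6 of the 11 windows of these genes did. A match is a description of these letters and not evidence of binding.

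**Figure D1:**
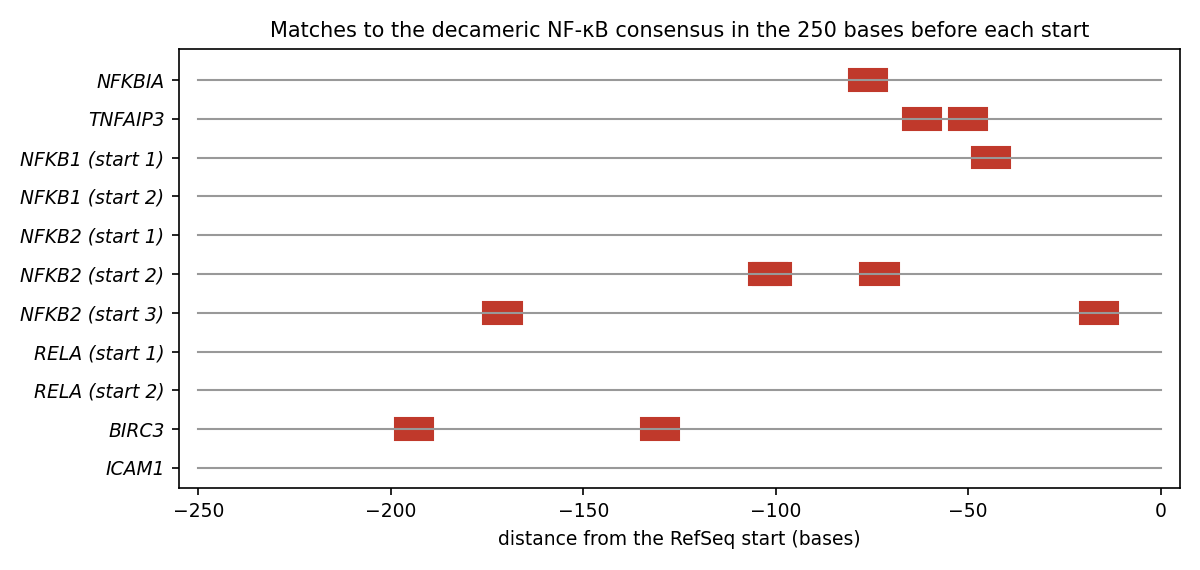
Map of the 250 bases before each RefSeq start of 7 genes, with the distance from the start in bases on the horizontal axis and a red box for each match to the decameric NF-kB consensus on either strand. NFKBIA, TNFAIP3, BIRC3, 1 of the 2 NFKB1 starts and 2 of the 3 NFKB2 starts have matches, and RELA and ICAM1 have none.

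Values below are log2 fold changes ± the standard error from 1 limma fit to all 12 arrays. A gene was called, and is said to have risen or fallen, where limma's p stayed under 0.05 after Benjamini-Hochberg adjustment across the 12674 genes. Each array measured a whole culture, so fewer cells with a transcript and less transcript per cell cannot be told apart. The average DM effect compares the 6 arrays with DM to the 6 without it, balanced for BMP2. DM against PBS and BMP2 against PBS share the PBS arrays. Signals of different probe sets were not compared with each other.

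The 12 arrays had been scaled to trimmed means from 495.8 to 496.1, and their median signals ran from 86.7 to 112. All 6 markers of an ovarian carcinoma line (PAX8, ERBB2, EPCAM, KRT7, KRT8 and KRT18) lay above the filter signal of 69.8, as did 2 of 6 leukocyte markers with a probe set, 1 of 5 endothelial and 2 of 6 fibroblast markers. The leukocyte markers CD79A and ITGAM had signals of 335 and 152, above the filter. PTPRC, CD3E, CD14 and LYZ had 47.2, 62.4, 25.0 and 21.3, below it. The summed signal of the 6 leukocyte markers ran from 677 to 1027 with PBS, 590 to 1168 with BMP2, 553 to 660 with DM and 564 to 971 with both. Of the 6 carcinoma markers 3 rose and none fell in the average DM effect, where 6.78% of all genes rose and 5.25% fell. The part of this in the results below was not tested. BMP2 replicate 1 was the array least like its own group (mean r = 0.934) and had the highest median signal. The RELB result, which rests on the BMP2 arrays, is also given without it.

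Few of the NF-kB subunits and feedback targets passed the test, and those that did rose with DM. NFKB1 rose with DM alone by 0.47 ± 0.11, or 1.38-fold. RELB rose by 0.91 ± 0.19, or 1.88-fold, when DM was added to BMP2. In the average DM effect RELB, NFKB1 and TNFAIP3 rose, by 0.50 ± 0.14, 0.26 ± 0.08 and 0.26 ± 0.07. The DM effects without and with BMP2 were alike for TNFAIP3 (0.26 and 0.25), but not for NFKB1 (0.47 and 0.05) or RELB (0.09 and 0.91). The interaction was called for none of these genes. None of the 8 genes was called lower in any comparison with all 12 arrays, and none was called with BMP2 alone. In a further fit of all 54613 probe sets without the filter, only RELB in BMP2+DM against BMP2 kept its call (adjusted p = 0.0228 by limma). There NFKB1 in DM against PBS had an adjusted p of 0.0767 by limma. The average DM effects of RELB, TNFAIP3 and NFKB1 had 0.0646, 0.0849 and 0.115.

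**Figure D2:**
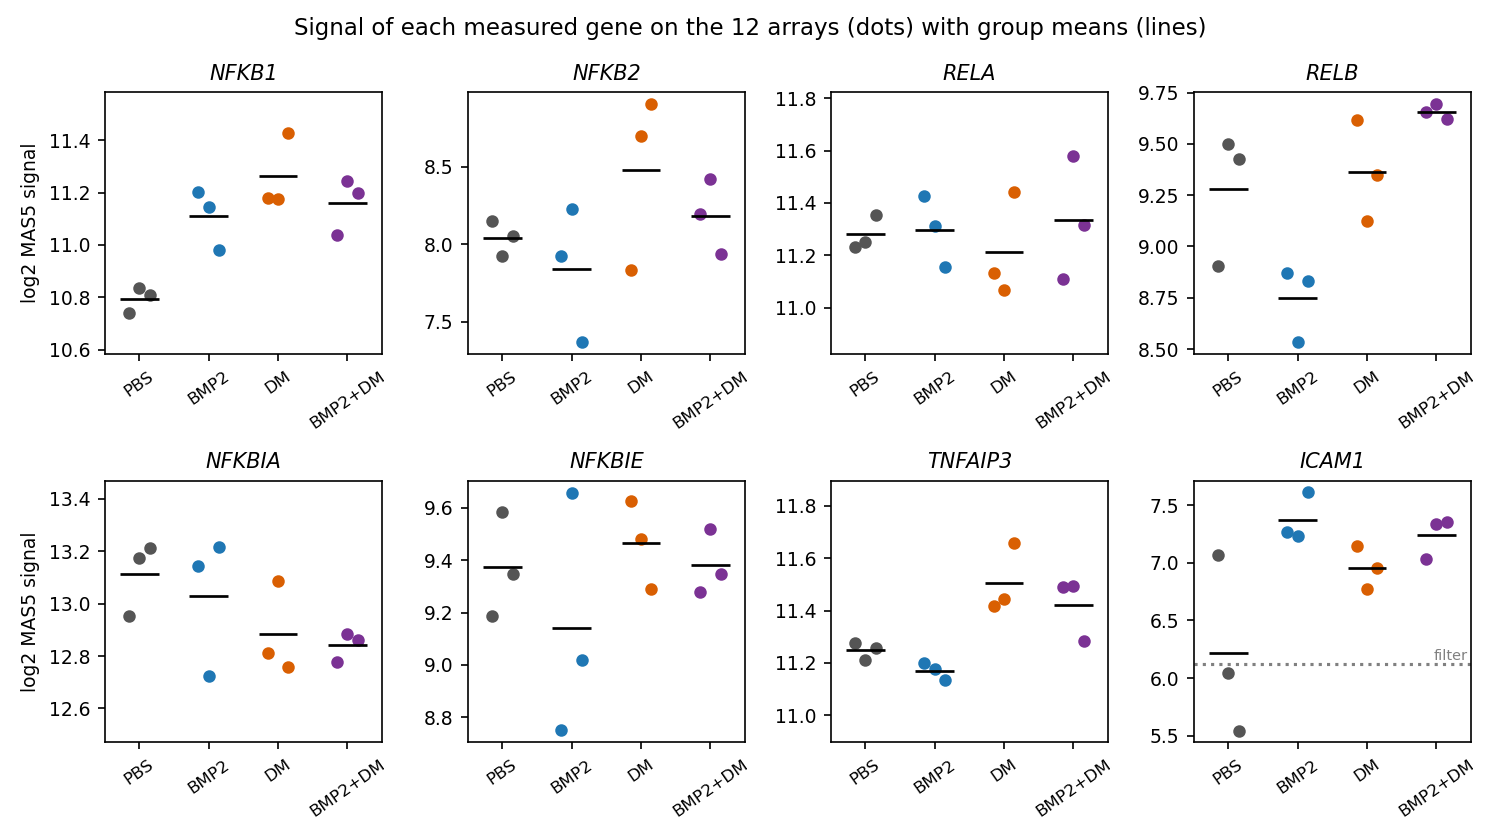
log2 MAS5 signal of the 8 measured genes on the 12 arrays, with a dot for each array, a line for each group mean and at least 1 log2 unit on each vertical axis. The 3 PBS arrays lie below every other array for NFKB1, the 3 BMP2+DM arrays lie above every other array for RELB, and the 6 arrays with DM lie above the 6 without it for TNFAIP3.

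NFKB1 encodes p105, the precursor of the p50 subunit. Its signals were 1709, 1828 and 1794 with PBS, and 2357, 2266 and 2018 with BMP2. They were 2321, 2313 and 2757 with DM, and 2100, 2424 and 2349 with both reagents. The PBS arrays were thus the 3 lowest, and the other groups overlapped each other. Against PBS the change was 0.31 ± 0.11 with BMP2 (adjusted p = 0.283 by limma), 0.47 ± 0.11 with DM (adjusted p = 0.0218) and 0.36 ± 0.11 with both (adjusted p = 0.0696). Added to BMP2, DM gave 0.05 ± 0.11, with a 95% interval from -0.18 to 0.28. The interaction, the BMP2 effect with DM minus that without, was -0.42 ± 0.15 (unadjusted p = 0.0149, adjusted p = 0.451 by limma). The average DM effect of 0.26 therefore joins a value of 0.47 without BMP2 and one of 0.05 with it. The call in DM against PBS was lost without PBS replicate 1, 2 or 3 and without DM replicate 3, with adjusted p up to 0.0907. The average DM effect (adjusted p = 0.0362) was called in 10 of 21 alternatives. It was not called without any 1 of the 3 PBS arrays, BMP2 replicate 3, DM replicate 3, or BMP2+DM replicate 2 or 3, with adjusted p up to 0.0933, nor with a replicate block (adjusted p = 0.0511).

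RELB encodes the partner of p52 in the noncanonical branch of the pathway. Its signals were 480, 724 and 689 with PBS, and 469, 371 and 456 with BMP2. With DM they were 786, 557 and 652, and with both reagents 805, 829 and 788. The 3 BMP2+DM arrays were the highest of the 12 and close together, and the 3 BMP2 arrays were the lowest. PBS and DM lay between and overlapped. BMP2+DM against BMP2 gave 0.91 ± 0.19 with an adjusted p of 0.00793 by limma, a call kept in all 22 alternatives, where adjusted p ran from 0.00466 to 0.0334. Without BMP2 replicate 1 it was 0.97. DM against PBS gave 0.09 ± 0.19 (adjusted p = 0.894), and BMP2 against PBS -0.53 ± 0.19 (unadjusted p = 0.0139, adjusted p = 0.311). BMP2 added to DM gave 0.29 ± 0.19 (adjusted p = 0.72), and BMP2+DM against PBS gave 0.38 ± 0.19 (adjusted p = 0.31). The interaction was 0.82 ± 0.27, with an unadjusted p of 0.00786 and an adjusted p of 0.372 by limma, so a difference between the BMP2 effects with and without DM was not called. The average DM effect of 0.50 (adjusted p = 0.0239) was not called without PBS replicate 1, DM replicate 1 or BMP2+DM replicate 2, with adjusted p up to 0.0696.

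The other subunits were not called in any of the 8 comparisons. RELA encodes p65, the main activating subunit. Its signals were 2406, 2438 and 2621 with PBS, 2753, 2544 and 2281 with BMP2, 2246, 2145 and 2779 with DM, and 2210, 3062 and 2549 with both. The 4 groups overlapped throughout, and the group means lay within 0.12 of each other on the log2 scale. The DM effect was -0.07 ± 0.13 with a 95% interval from -0.34 to 0.21. The second RELA probe set, with a geometric mean signal of 459, had an average DM effect of 0.43 ± 0.22 (adjusted p = 0.413 over all probe sets), against -0.01 ± 0.09 for the first.

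NFKB2 encodes p100, the precursor of p52. Its brightest probe set read 284, 243 and 265 with PBS, 243, 300 and 165 with BMP2, 228, 415 and 480 with DM, and 294, 343 and 245 with both. DM replicates 2 and 3 were the 2 highest arrays, while DM replicate 1 lay among those without DM. The DM effect was 0.44 ± 0.32 (adjusted p = 0.563) with a 95% interval from -0.23 to 1.10. The other NFKB2 probe sets gave 0.15 ± 0.48 and 1.49 ± 1.18 in the same comparison, the last at a geometric mean signal of 28.2, below the filter.

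The IkB inhibitors did not rise with DM by the test used. NFKBIA encodes IkB-alpha, the inhibitor that NF-kB itself resupplies within its feedback circuit. Its signals were 7933, 9247 and 9496 with PBS, 9056, 6769 and 9515 with BMP2, 7197, 8695 and 6920 with DM, and 7027, 7555 and 7437 with both. DM and PBS overlapped, whereas the 3 BMP2+DM arrays lay below the 3 PBS arrays. The values were -0.23 ± 0.12 for DM against PBS (adjusted p = 0.378), -0.27 ± 0.12 for BMP2+DM against PBS (adjusted p = 0.226) and -0.21 ± 0.09 for the average DM effect (unadjusted p = 0.0259, adjusted p = 0.132). The 95% interval of the last ran from -0.39 to -0.03. Without BMP2 replicate 2 the average DM effect on NFKBIA was -0.28 with an adjusted p of 0.0173, a call for lower signal made in 1 of 21 alternatives, among which adjusted p reached 0.837. The second NFKBIA probe set had a geometric mean signal of 102 and read from 31.8 to 240 over the 12 arrays.

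NFKBIE encodes IkB-epsilon, an inhibitor of p65 and c-Rel dimers. It read 583, 766 and 651 with PBS, 432, 806 and 519 with BMP2, 791, 714 and 627 with DM, and 621, 735 and 652 with both. All 4 groups overlapped, with a DM effect of 0.09 ± 0.21 (adjusted p = 0.892) and a BMP2 effect of -0.23 ± 0.21 (adjusted p = 0.75).

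TNFAIP3 encodes A20, the ubiquitin-editing enzyme that shuts off signalling upstream of the IkB kinase. Its brightest probe set read 2481, 2369 and 2447 with PBS, 2350, 2315 and 2250 with BMP2, 2737, 2785 and 3230 with DM, and 2876, 2885 and 2491 with both. The 6 arrays with DM lay above the 6 without it, by a narrow margin between BMP2+DM replicate 3 and PBS replicate 1. Such a separation was found for 3.22% of genes in the higher direction. The change was nearly equal without and with BMP2, at 0.26 ± 0.10 (adjusted p = 0.19) and 0.25 ± 0.10 (adjusted p = 0.144), with an interaction of -0.01 ± 0.14. Joined, the average DM effect was 0.26 ± 0.07, or 1.19-fold, with an adjusted p of 0.0245. The second TNFAIP3 probe set gave 0.12 ± 0.11 (adjusted p = 0.714 over all probe sets), and with DM alone its replicates read 1356, 1386 and 958. The call was lost with the mean of both probe sets, where the value was 0.19, and without PBS replicate 2, BMP2 replicate 3, DM replicate 3, or BMP2+DM replicate 1 or 2, with adjusted p up to 0.0657.

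ICAM1, the adhesion molecule that binds leukocyte integrins, was dim. Its brightest probe set read 134, 66.1 and 46.6 with PBS, 155, 150 and 196 with BMP2, 141, 110 and 124 with DM, and 131, 162 and 164 with both. PBS replicates 2 and 3 were below the filter signal, and the 3 BMP2 arrays lay above the 3 PBS arrays. The BMP2 effect was 1.15 ± 0.48 (unadjusted p = 0.028, adjusted p = 0.398), and the DM effect 0.74 ± 0.48 (adjusted p = 0.499). The other 2 ICAM1 probe sets lay below the filter and had BMP2 effects of 0.19 ± 1.01 and 0.00 ± 1.24.

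**Figure D3:**
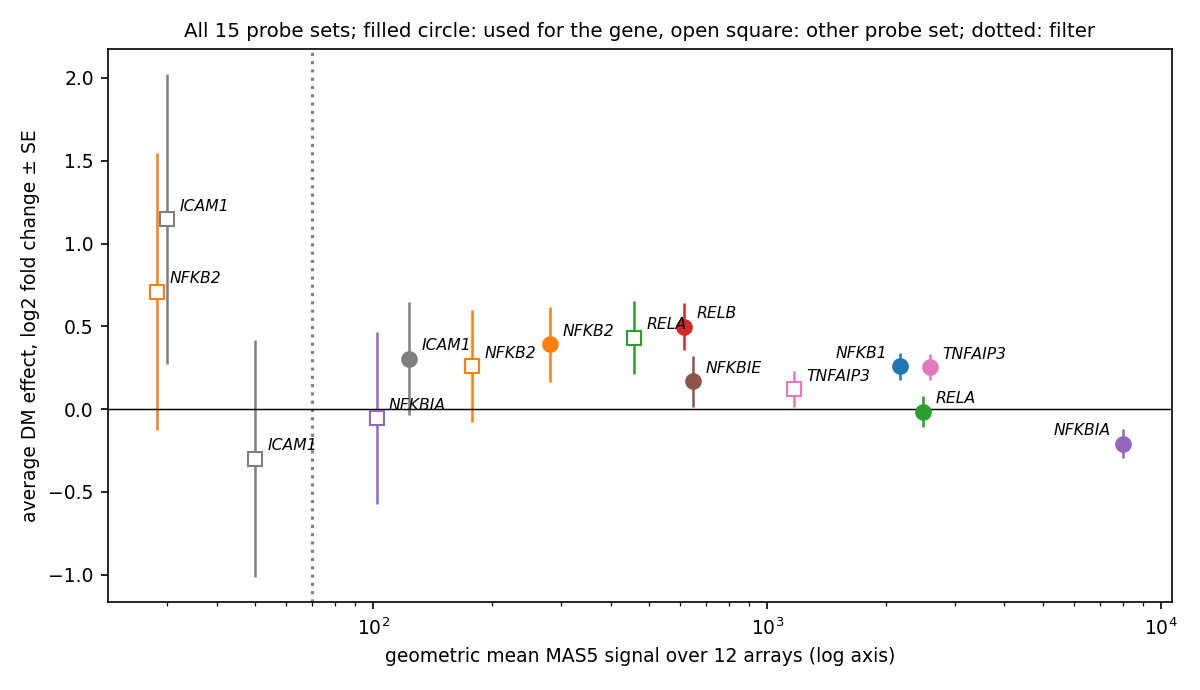
Average DM effect (log2 fold change ± SE, fit over all probe sets) of the 15 probe sets against their geometric mean signal on a log axis, with filled circles for the probe set that stands for a gene and open squares for the others. The 3 dimmest probe sets lie left of the dotted filter line with wide errors, and the 2 RELA and the 2 TNFAIP3 probe sets sit at different heights.

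Counted together, 0 of the 8 genes were called in BMP2 against PBS by limma, where 0.631% of all genes were, and 3 had an unadjusted p under 0.05, a level that 10.5% of all genes reached. The arrays of these groups did not overlap for NFKB1 and ICAM1, which were higher with BMP2 (8.97% of all genes were so separated), and for RELB and TNFAIP3, which were lower (6.07%). In DM against PBS 1 of 8 was called, NFKB1, against 3.57% of all genes, or 1.86% in the higher direction, and 2 of 8 had an unadjusted p under 0.05, against 16.2%. Groups were separated for NFKB1 and TNFAIP3, both higher (11.9% of all genes), and for none lower (9.94%). The median of the 8 was 0.18, against 0.02 for all genes. In BMP2+DM against BMP2 1 of 8 was called, RELB, against 7.25% of all genes, or 4.08% in the higher direction, and 2 had an unadjusted p under 0.05, against 21.8%. Groups were separated for RELB and TNFAIP3, both higher (14%), and for none lower (11.8%), and the median was 0.14 against 0.03.

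BMP2+DM against DM called 0 of 8 by limma and 0.0473% of all genes, with 0 of the 8 and 8.88% of all genes at an unadjusted p under 0.05. RELB alone was separated there, higher (9.19% of all genes), and none was lower (5.97%). BMP2+DM against PBS called 0 of 8 by limma, where 4.09% of all genes were called, and 3 of the 8 had an unadjusted p under 0.05, as did 18.7% of all genes. NFKB1, RELB and TNFAIP3 were separated and higher there (15.8%), and NFKBIA was separated and lower (10%). The interaction called 0 of 8 by limma and 0.118% of all genes, with 2 of the 8 and 8.7% of all genes at an unadjusted p under 0.05. The average BMP2 effect called 0 of 8 by limma and 0.505% of all genes, with 1 of the 8, ICAM1, and 10.4% of all genes at an unadjusted p under 0.05. The average DM effect called 3 of 8, against 12% of all genes, or 6.78% in the higher direction, and 4 of the 8 had an unadjusted p under 0.05, against 25.1%. Only TNFAIP3 of the 8 was separated between the 6 arrays with DM and the 6 without (3.22% of all genes higher, 2.56% lower). The median of the 8 was 0.26, against 0.03 for all genes.

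**Figure D4:**
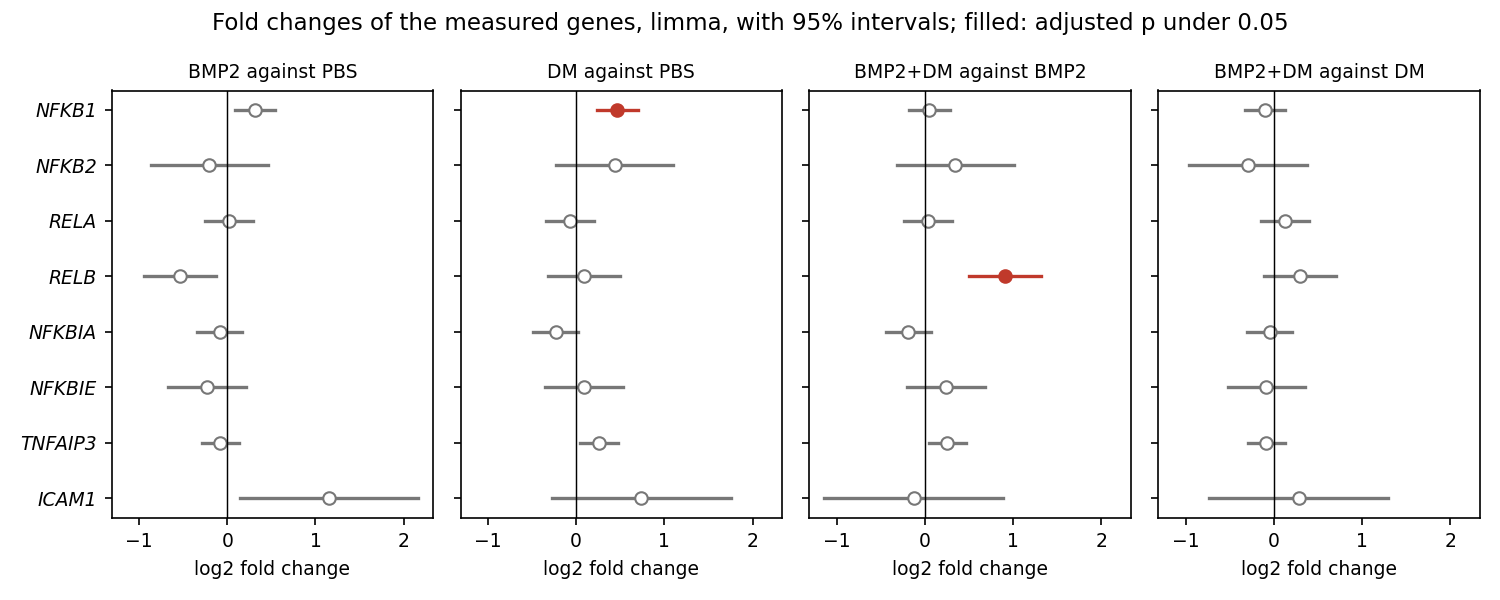
log2 fold changes of the 8 genes with 95% intervals in 4 comparisons, from the limma fit; filled red points have an adjusted p under 0.05. NFKB1 in DM against PBS and RELB in BMP2+DM against BMP2 are the filled points, and the intervals of ICAM1 and NFKB2 are the widest.

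The cytokines and chemokines that NF-kB is known to drive are the genes beside which its intracellular targets were read. Of 19 listed, 18 had a probe set and 11 passed the filter and were tested, so the dimmer ones were not read. Of the 11, 7 rose in the average DM effect (6.78% of all genes did), none fell (5.25%) and 4 were not called. Their median was 0.41, against 0.03 for all genes. The list was chosen with earlier results of these data known, so these counts describe it and are not independent support. IL6, the cytokine interleukin-6, went from 896, 1130 and 1023 with PBS to 2345, 2332 and 2480 with DM, and from 994, 1156 and 817 with BMP2 to 2753, 2363 and 2657 with both. The 6 arrays with DM all lay far above the 6 without it, and the average DM effect was 1.32 ± 0.10 (adjusted p = 5.71e-08 by limma). CXCL8, a neutrophil chemokine, had 0.76 ± 0.05, IL1A 0.78 ± 0.07 and LIF 0.74 ± 0.10. CXCL2 had 0.36 ± 0.06, and CCL20, a chemokine for CCR6-bearing cells, 0.41 ± 0.07. For CCL20 this joins a DM effect of 0.01 without BMP2, not called, and one of 0.82 with it. TNF, whose value was looked at after the rule for naming genes had been applied, had 0.46 ± 0.13. The TNF call was made in 11 of 21 alternatives and lost without PBS replicate 2 or 3, BMP2 replicate 2 or 3, DM replicate 1 or 2, or BMP2+DM replicate 2 or 3 (adjusted p up to 0.0902). Averaging probe sets ended the calls of IL1A (-0.15) and CXCL2 (0.73), for each of which dim probe sets entered the mean. The lower bound of the 95% interval for RELB was 0.21 and the upper bound 0.79; for NFKB1 and TNFAIP3 the upper bounds were 0.42 and 0.40. The difference between the 2 lists was not tested.

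Among the cytokines, CCL20 and CXCL2 were called for BMP2. CCL20 fell with BMP2 alone by 0.54 ± 0.10 (adjusted p = 0.0186), from 6811, 6429 and 7047 to 4417, 4387 and 5209, and its interaction was 0.81 ± 0.14 (adjusted p = 0.0349). The BMP2 call was lost without PBS replicate 1 or 3 or BMP2 replicate 1 or 2, with adjusted p up to 0.114. RELB had signals of the same order of groups, lowest with BMP2 and highest with both. Its interaction was of like size, at 0.82 ± 0.27, but was not called. In the fit of all probe sets that of CCL20 was not called either (adjusted p = 0.0698 by limma). CXCL2 was higher on average with BMP2, at 0.41 ± 0.06 (adjusted p = 0.00613).

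Genes that act before and beside the listed ones were mixed. Of 10 kinases and partners upstream of IkB, 1 rose in the average DM effect and none fell, where 6.78% of all genes rose and 5.25% fell. The gene that rose was IKBKB, which encodes the beta subunit of the IkB kinase, at 0.56 ± 0.11 (adjusted p = 0.00292 by limma). Its other 2 probe sets gave -0.20 ± 0.21 and 0.49 ± 0.28, neither called. Averaging the 3 probe sets of IKBKB gave 0.28, without a call. Without and with BMP2 the DM effect on IKBKB was 0.38 and 0.74, and DM against PBS called 0 of the 10 genes. CHUK, the alpha subunit, had -0.03 ± 0.45, and MAP3K14, the kinase of the noncanonical branch, 0.76 ± 0.29 without a call. Of 12 receptors and adaptors tested, 2 rose and 2 fell in the average DM effect (6.78% and 5.25% of all genes). DM against PBS called 0 of the 12. TNFRSF1A, the main TNF receptor, had 0.34 ± 0.10 and IRAK1, a kinase below the interleukin-1 receptor, 0.25 ± 0.08, while BIRC2, an inhibitor of apoptosis protein and close relative of BIRC3, had -0.51 ± 0.08 and TRAF6, a ubiquitin ligase, -0.41 ± 0.13. The calls of IRAK1 and TRAF6 were near the threshold, at adjusted p of 0.0478 and 0.0445, and were made in 5 and 6 of 21 alternatives. The second probe set gave -0.04 ± 0.23 for IRAK1 and 0.35 ± 0.17 for TRAF6, the latter in the opposite direction. Averaging probe sets gave 0.10 and -0.03. The IRAK1 call held without PBS replicate 1 or BMP2 replicate 2 and was lost without any other single array, with adjusted p up to 0.117. That of TRAF6 held without PBS replicate 1 or BMP2 replicate 3 and was likewise lost without any other, with adjusted p up to 0.11. TNFRSF1A was called in 13 of 21 alternatives, and not without PBS replicate 1 or 3, BMP2 replicate 3, DM replicate 1 or 3, or BMP2+DM replicate 2 (adjusted p up to 0.0845). The DM effect on TNFRSF1A was 0.12 without BMP2 and 0.56 with it, while that on IRAK1 was 0.29 and 0.21. BIRC2 also rose with BMP2 alone, by 0.57 ± 0.11 (adjusted p = 0.0223), and fell when DM was added to BMP2, by 0.72 ± 0.11 (adjusted p = 6e-04). Its call with BMP2 alone was lost without BMP2 replicate 1 or 3 and without PBS replicate 2 or 3, with adjusted p up to 0.137.

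Among 6 other Rel and IkB family genes, 1 fell and none rose in the average DM effect, where 5.25% of all genes fell and 6.78% rose. NFKBIZ, a nuclear IkB protein that acts as a cofactor for IL6 and other targets, had -0.38 ± 0.07 (adjusted p = 0.00174), and -0.53 ± 0.10 in DM against PBS. It fell from 4295, 4009 and 3902 with PBS to 2782, 3094 and 2580 with DM. Added to BMP2, DM gave -0.22, without a call. The second NFKBIZ probe set gave -0.17 ± 0.19 in DM against PBS and -0.14 ± 0.13 in the average DM effect, neither called. Averaging the 2 NFKBIZ probe sets gave an average DM effect of -0.26 (adjusted p = 0.0787). Its call in DM against PBS was lost with that averaging and with median centring, with adjusted p up to 0.192. The average DM effect was -0.19 ± 0.11 for REL, which encodes c-Rel, and 0.20 ± 0.43 for NFKBID, neither called.

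Of 16 other intracellular and surface targets, 3 rose and 1 fell in the average DM effect. In DM against PBS 0 of the 16 were called higher and 1, SOD2, lower, where 3.57% of all genes were called in either direction. IER3, an early response gene, rose by 0.34 ± 0.06 (adjusted p = 0.000439). TNIP2 and TNIP1, which encode partners of A20, rose by 0.36 ± 0.08 and 0.25 ± 0.07. Without and with BMP2 the DM effect was 0.24 and 0.45 for IER3, 0.22 and 0.51 for TNIP2, and 0.13 and 0.36 for TNIP1. TNIP1 was called in 13 of 21 alternatives, and not without PBS replicate 1 or 2, BMP2 replicate 1 or 3, DM replicate 2 or BMP2+DM replicate 2 (adjusted p up to 0.0667). SOD2, the mitochondrial superoxide dismutase, fell by 1.65 ± 0.31 on the log2 scale (adjusted p = 0.00177). It had a single probe set under its symbol, which read 7268, 5308 and 8301 with PBS, 9681, 1596 and 1674 with BMP2, 1345, 1348 and 1506 with DM, and 1809, 1354 and 1306 with both. BMP2 replicate 1 lay with the PBS arrays there and replicates 2 and 3 with the DM arrays. Leaving out 1 array at a time moved the SOD2 value from -1.87 to -1.22, and the call was kept. PTGS2 and VCAM1, textbook targets, had signals of 30.9 and 26.9, below the filter, and were not tested. The background for these lists is the same 6.78% of genes higher and 5.25% lower.

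**Figure D5:**
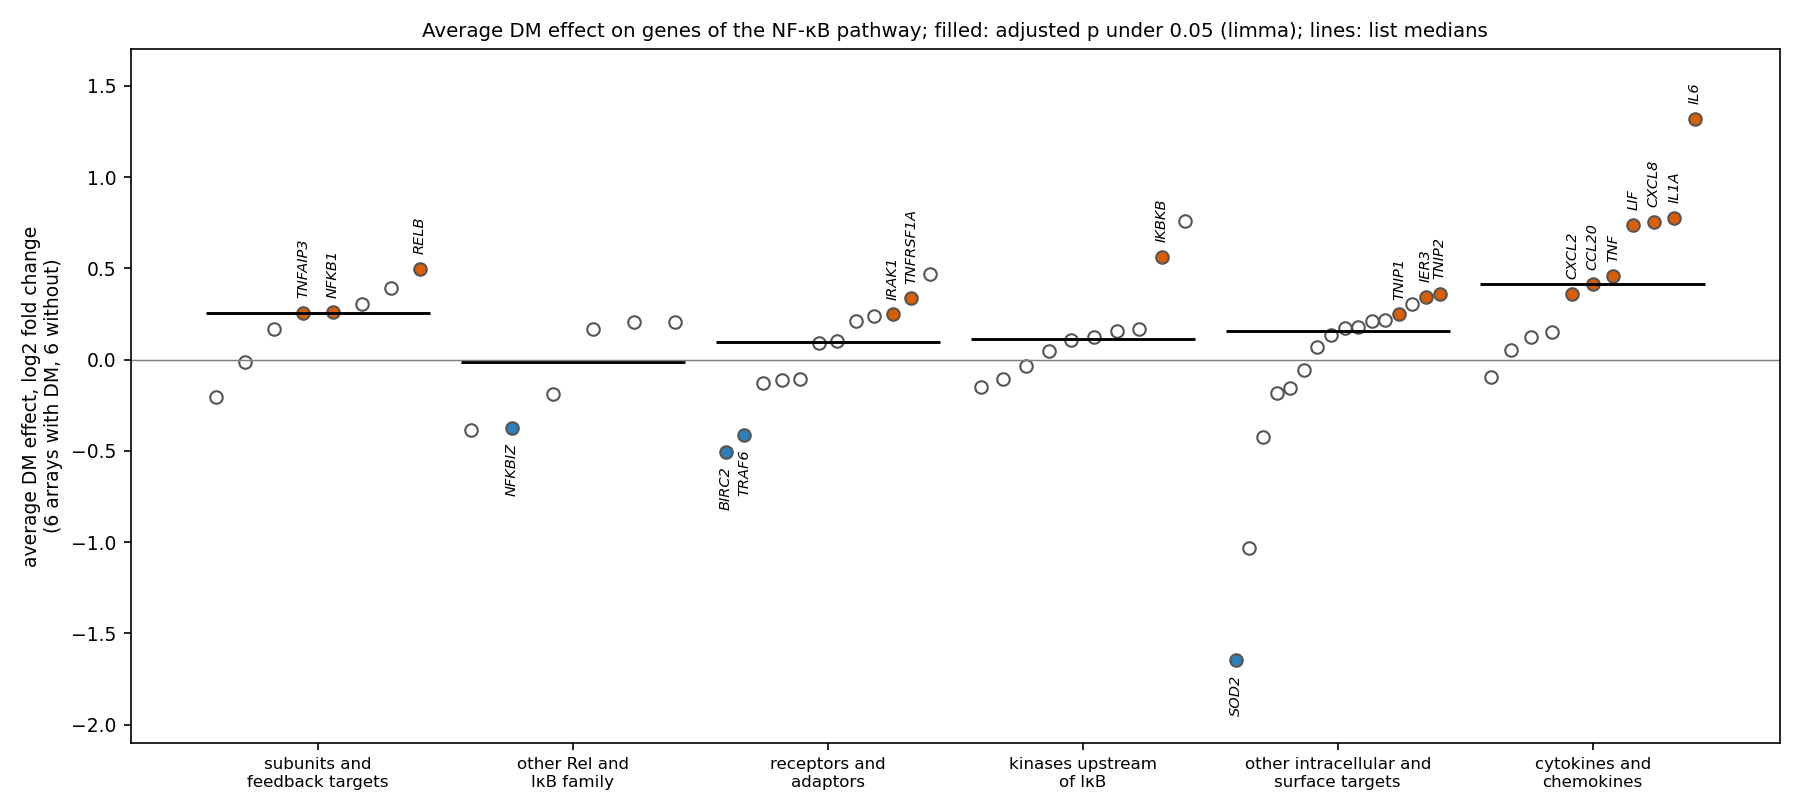
Average DM effect (log2 fold change, 6 arrays with DM against 6 without) of the tested genes in 6 lists, with filled and named dots for an adjusted p under 0.05 (orange higher, blue lower), open dots for the rest and a line for the list median. The cytokines reach the highest values, led by IL6, and the listed subunits and feedback targets lie between -0.21 and 0.50.

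By the root mean square difference of the 3 log2 fold changes against PBS, over group means of 12 arrays, the tested genes nearest to RELB were WNT10A, DHRS13 and TMEM268, at 0.04 to 0.05. Those nearest to NFKB1 were TTN, PHKA2 and SENP3, at 0.01 to 0.03. Those nearest to TNFAIP3 were POLR1B, BEND3 and KRT18, at 0.01 to 0.02.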

How the data were processed

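Total RNA of the 12 samples was biotinylated as cRNA and hybridised, per the labels' protocols. MAS5 (version not stated) made the signals, per the submitters' processing notes. The deposited values are linear intensities, which the authors had scaled alike on all arrays, so a value is relative to its array. They were floored at 1 (396 values) and converted here from the deposited intensity to log2. Of 54613 probe sets, 41091 carried a single symbol in the probe table used, 1801 carried several and 11721 had no entry. The probe set of highest mean log2 signal stood for its gene, and a gene was tested if this mean exceeded the median over probe sets (a signal of 69.8), which left 12674 genes. The model (limma 3.58.1, R 4.3.3) used group means, all 12 arrays, an intensity trend and two-sided tests, and had 8 residual degrees of freedom. A second fit held every probe set unfiltered. It called 0 of the 15 probe sets of these genes in DM against PBS (0.787% of all probe sets) and 0 in the average DM effect (3.16%). In BMP2+DM against BMP2 it called 1 of the 15 (1.57%). The smallest two-sided p of an exact permutation test with 3 arrays a group is 0.1, so none was used. The fitting code was tested on simulated data.

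The genes and lists were chosen with earlier results of these data known. All 9 listed genes are named. From each other list the text could name up to 4 genes with the smallest p in DM against PBS and up to 4 in BMP2 against PBS, and for the 3 called genes the 3 nearest in pattern. TNF, TNFRSF1A, TRAF6, TNIP1, REL, PTGS2 and VCAM1 fall outside this rule and were named after their values were seen. Promoter windows come from RefSeq (GRCh38.p14). Alternatives changed the scaling, offset, filter, probe set rule, variance model, groups fitted, replicate block and arrays included.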

Additional observations from a re-analysis of the deposited data

Results flagged for a closer look

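CCL20 responded to BMP2 differently with and without DM. Its interaction was 0.81 ± 0.14 on the log2 scale, with an adjusted p of 0.0349 by limma. It was called in 7 of 21 alternatives, with a range of 0.74 to 0.90 and an adjusted p from 0.0206 to 0.342. The call was lost without PBS replicate 1, 2 or 3, BMP2 replicate 1, DM replicate 1 or 3, or BMP2+DM replicate 1, 2 or 3, with adjusted p up to 0.124.

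RELB stood below PBS on all 3 BMP2 arrays and above DM on all 3 BMP2+DM arrays, each by a narrow margin. BMP2 replicate 1 read 469 against 480 for PBS replicate 1, and BMP2+DM replicate 3 read 788 against 786 for DM replicate 1. Its interaction of 0.82 had an adjusted p of 0.372 by limma, so the difference between the responses was not called.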

How the results depend on the processing

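The calls of the 8 genes were few and mostly near the threshold. With median centring and with no intensity trend the count called in DM against PBS went from 1 to 0, and in the average DM effect from 3 to 1. Leaving out 1 array at a time gave 0 to 1 genes in DM against PBS and 0 to 4 in the average DM effect; the count of 4 was without BMP2 replicate 2, where NFKBIA was called lower (-0.28), the count of 0 was without BMP2+DM replicate 2, and it was 1 without PBS replicate 1 or 2, BMP2 replicate 3 or DM replicate 3. In the other 6 comparisons the count did not change in any alternative run. All called values of the 8 genes kept their direction. IL1A reversed with the mean of its probe sets, to -0.59 in BMP2+DM against BMP2 and -0.15 in the average DM effect, neither called, where a second probe set at a signal of 30.2 entered the mean. Over all genes, the count called in the average DM effect was 1525, against 763 to 1623 in other settings and 1181 to 1526 without 1 array; in DM against PBS it was 453, against 180 to 526 and 252 to 508; and in BMP2+DM against BMP2 919, against 440 to 1045 and 553 to 1018. In BMP2 against PBS it was 80 (12 to 90, and 36 to 101), in BMP2+DM against PBS 519 (221 to 732, and 269 to 614), in BMP2+DM against DM 6 (2 to 12, and 3 to 21), for the interaction 15 (1 to 26, and 0 to 42) and for the average BMP2 effect 64 (10 to 111, and 25 to 88). Deviations of same-numbered replicates were only weakly correlated (0 of 18 pairs had a correlation above 0.1, range -0.03 to 0.06). However, for 8 of 12 arrays the best match in the other groups bore the same number. Whether the numbers pair the samples was thus not settled. With a replicate block the count was 1 in DM against PBS, 1 in BMP2+DM against BMP2, 2 in the average DM effect and 0 in the other 5 comparisons. The number of arrays limits the precision, and ICAM1 and the dim NFKB2 and IL1A probe sets lie near or below the filter. The causes of these changes were not tested.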
